A study of Homo sapiens with 3 samples.

Results

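Notch is a signaling pathway between touching cells, in which a ligand of the Delta-like or Jagged family on the sending cell binds a Notch receptor on the receiving cell. Binding lets ADAM proteases and then γ-secretase cut the receptor, and the freed intracellular part joins the DNA-binding protein RBPJ to activate target genes such as HES1, a repressor of the basic helix-loop-helix class. The pathway is known for its part in lineage choice when embryonic stem cells differentiate.

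The 10 genes examined here were the receptors NOTCH1 to NOTCH4, the ligands DLL1, DLL3, DLL4, JAG1 and JAG2, and HES1. They were taken by symbol, with identifiers joined to GENCODE, from the 58051 genes in the deposited counts. The samples were 3 replicates of untreated, wild-type H9 cells, an established human embryonic stem cell line, grown without feeder cells in Essential 8 Flex, with Vitronectin-XF as the coating of the dishes. Total RNA was sequenced after removal of ribosomal RNA, and the study used the RNA levels to sort genes before comparing DNA breaks at replication origins. There is 1 condition and no second group, so levels are described and no difference between conditions was tested. The labels do not say whether the replicates were separate cultures, so their spread may be technical. The libraries held 10390984, 12024802 and 8655155 counts on genes. All 6 pluripotency markers examined were in the upper expression class, with sums between 5217 and 5382 TPM per replicate. TPM is the count of a gene divided by its exon length and scaled to the same total in each replicate. Of 6 endothelial markers, KDR had 76.5 TPM and the other 5 lay between 0.101 and 1.19 TPM, with list sums from 77.3 to 82.1 TPM. Mural and smooth muscle markers had sums from 14.2 to 16.5 TPM, with 2 of 6 in the medium expression class. Mesoderm and endoderm markers had sums from 32.5 to 51.1 TPM, with 3 of 6 in the medium class. MIXL1 led them at 28.1, 21.9 and 16.8 TPM in replicates 1, 2 and 3. Neural progenitor markers had sums from 4.07 to 5.87 TPM, with NEUROG1 and NEUROG2 at 0 counts in every replicate. The part of such cells in the Notch transcripts was not tested, and in bulk RNA few cells of a type cannot be told apart from little RNA per cell.

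The promoter of HES1 is shown first, because HES1 was examined here as a target gene of the pathway. Beside it are those of HES3 and HES5, the family members with the highest and the lowest mean TPM in these cells. The 250 bases before the RefSeq start site (GRCh38.p14) are given 5′ to 3′ on the strand of the gene, with matches to the RBPJ core, TGGGAA on either strand, in capitals. They lie at chr3:194135898-194136147 (plus strand) for HES1, chr1:6243929-6244178 (plus strand) for HES3 and chr1:2530264-2530513 (minus strand) for HES5.
HES1: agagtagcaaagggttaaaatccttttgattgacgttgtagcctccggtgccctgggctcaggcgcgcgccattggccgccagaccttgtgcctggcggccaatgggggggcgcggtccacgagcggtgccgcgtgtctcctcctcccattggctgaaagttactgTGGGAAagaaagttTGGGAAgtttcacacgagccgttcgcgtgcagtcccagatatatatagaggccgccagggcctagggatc
HES3: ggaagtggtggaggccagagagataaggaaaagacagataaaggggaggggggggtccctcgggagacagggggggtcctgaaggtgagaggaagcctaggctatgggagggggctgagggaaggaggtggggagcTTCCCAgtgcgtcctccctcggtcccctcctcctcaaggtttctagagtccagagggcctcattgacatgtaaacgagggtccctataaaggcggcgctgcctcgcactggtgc
HES5: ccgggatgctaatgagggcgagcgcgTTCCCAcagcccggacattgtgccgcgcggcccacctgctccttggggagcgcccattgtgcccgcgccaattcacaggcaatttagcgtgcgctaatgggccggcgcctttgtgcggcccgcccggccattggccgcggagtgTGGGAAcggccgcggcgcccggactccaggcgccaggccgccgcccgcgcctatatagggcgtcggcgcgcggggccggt

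HES1 had 2 matches to the RBPJ core, from −84 to −79 and from −70 to −65 bases relative to the start site, both on the strand of the gene. HES5 had 2 matches, from −224 to −219 on the opposite strand and from −80 to −75 on its own strand, and HES3 had 1, from −114 to −109 on the opposite strand. Of 15843 promoters of protein-coding genes of the same length, 20.2% held at least 1 match and 2.65% held at least 2. The longer form GTGGGAA, which contains the core, was found once at HES1, at both sites of HES5 and not in the HES3 window, against 5.26% of all promoters. The N box, CACNAG on either strand, to which HES1 protein is known to bind, had 3 matches at HES1 and 1 at HES3, and 30.5% of all promoters held at least 1. Of the 10 genes, 8 had a RefSeq promoter in the table used. HES1 was the only one of these 8 with a match to the RBPJ core, against 20.2% of all promoters. The N box was found in 3 of the 8, HES1, NOTCH3 and NOTCH4, against 30.5% of all promoters. Matches of letters are a description and do not show binding.

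Transcripts of NOTCH1, NOTCH2 and NOTCH3 were in the upper expression class in H9 cells, and NOTCH4 was in the low class. NOTCH3 (ENSG00000074181, chromosome 19, 15159038 to 15200995, minus strand) was the highest of all 10 genes. Its counts were 2187, 2332 and 2049 in replicates 1, 2 and 3, or 89.3, 81.9 and 98.1 TPM. Every replicate of NOTCH3 was above every replicate of the other 9 genes, and its mean of 89.8 ± 8.12 TPM (SD, n = 3) exceeded that of 90.7% of protein-coding genes. NOTCH2 (ENSG00000134250, chromosome 1, 119911553 to 120100779, minus strand) had 2066, 2340 and 1563 counts, or 47.4, 46.2 and 42.1 TPM. The lowest replicate of NOTCH2 was the third, which was the highest of NOTCH3. The mean of NOTCH2 was 45.2 ± 2.80 TPM (SD, n = 3), so that NOTCH3 was 1.99 times as high per exon length, with a log2 ratio of 0.99 ± 0.21 (SD, n = 3).

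NOTCH1 (ENSG00000148400, chromosome 9, 136494433 to 136546048, minus strand) had 1079, 1110 and 1051 counts, or 33.1, 29.3 and 37.8 TPM, with a mean of 33.4 ± 4.27 TPM (SD, n = 3). Like NOTCH3, it was highest in replicate 3 and lowest in replicate 2, and all its replicates were below those of NOTCH2. NOTCH4 (ENSG00000204301, chromosome 6, 32194843 to 32224067, minus strand), a receptor known mainly from endothelium, had 23, 21 and 22 counts. These gave 0.906, 0.712 and 1.02 TPM, a mean of 0.878 ± 0.154 TPM (SD, n = 3). All 3 replicates of NOTCH4 were far below those of the other receptors. The exact 95% Poisson interval of its 66 summed counts is 51.0 to 84.0 and covers counting error only. Exons of GPSM3 on the same strand cover 1.01% of its exon length.

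**Figure D1:**
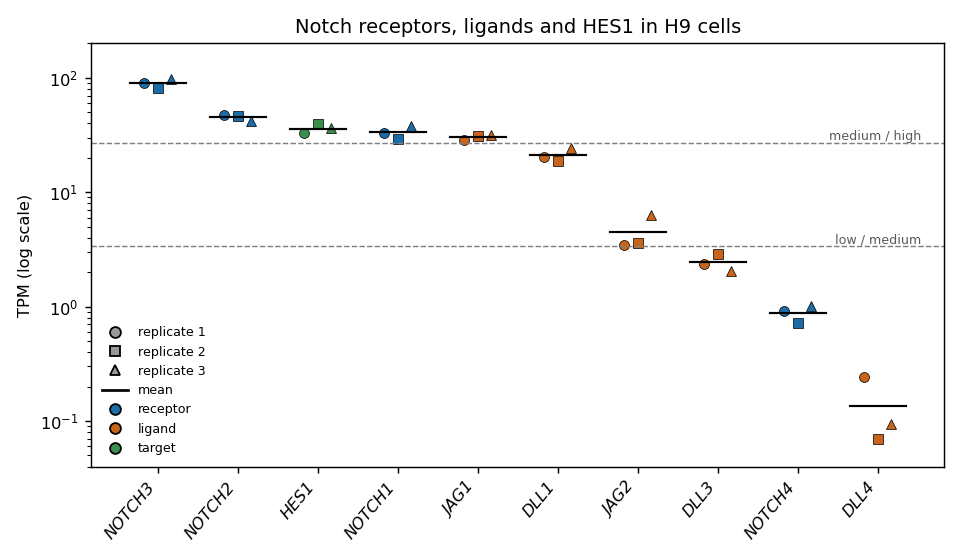
TPM on a log axis for the 10 genes in each of 3 H9 replicates (symbols), ordered by mean (horizontal lines) and coloured by role, with dashed lines at the class boundaries of 3.35 and 26.96 TPM. NOTCH3 stands above all others at a mean of 89.8 TPM, 4 genes lie between 30.3 and 45.2 TPM, and DLL4 is lowest at 0.136 TPM.

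Among the ligands, JAG1 and DLL1 led and the other 3 had few reads. JAG1 (ENSG00000101384, chromosome 20, 10637684 to 10673999, minus strand), a Jagged ligand, had 687, 869 and 653 counts, or 28.4, 30.9 and 31.6 TPM. Its replicates lay close together, with a mean of 30.3 ± 1.71 TPM (SD, n = 3). An unnamed noncoding gene on the opposite strand covers 3.29% of its exon length and had 0, 5 and 4 counts. DLL1 (ENSG00000198719, chromosome 6, 170282206 to 170306565, minus strand), a Delta-like ligand, had 201, 217 and 208 counts, or 20.2, 18.8 and 24.5 TPM. Its mean was 21.2 ± 3.00 TPM (SD, n = 3), and every replicate was below every replicate of JAG1. Exons of FAM120B on the opposite strand cover 9.69% of the exon length of DLL1, and since the use of strand in counting is not given, reads there cannot be assigned with certainty.

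JAG2 (ENSG00000184916, chromosome 14, 105140982 to 105168824, minus strand), the other Jagged ligand, had 57, 70 and 90 counts, or 3.42, 3.62 and 6.34 TPM. Replicate 3 was apart from the other two, and the coefficient of variation of 36.6% was the largest among the 9 of these 10 genes with at least 20 summed counts. The mean was 4.46 ± 1.63 TPM (SD, n = 3). A noncoding gene on the same strand, with 0 counts in every replicate, covers 7.33% of its exon length. DLL3 (ENSG00000090932, chromosome 19, 39498895 to 39508481, plus strand), a divergent family member known to act on receptors within its own cell, had 16, 23 and 12 counts, or 2.35, 2.90 and 2.07 TPM. Its mean was 2.44 ± 0.426 TPM (SD, n = 3), and replicate 3 was the lowest, in contrast to JAG2. DLL4 (ENSG00000128917, chromosome 15, 40929340 to 40939073, plus strand), a ligand known from sprouting vessels, had 3, 1 and 1 counts, or 0.242, 0.0695 and 0.0948 TPM. The exact 95% Poisson interval of its 5 summed counts is 1.62 to 11.7, and its mean was 0.136 ± 0.0934 TPM (SD, n = 3). No library exceeded the 3 counts that a count of 0 allows.

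HES1 (ENSG00000114315, chromosome 3, 194136148 to 194138732, plus strand) had 175, 244 and 165 counts, or 32.6, 39.2 and 36.1 TPM. Replicate 2 was the highest, whereas NOTCH1 and NOTCH3 were lowest there. The mean of HES1 was 36.0 ± 3.26 TPM (SD, n = 3), above 76.6% of protein-coding genes.

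Neighbors in the order of mean TPM were called separate where their replicates did not overlap and their means differed by more than the sum of both SDs. With 3 values a gene, no exact test could pass 0.05, and the order is a description. By this rule 6 of 9 neighboring pairs were separate. The pairs HES1 and NOTCH1, and NOTCH1 and JAG1, were not separate, with differences of 2.59 TPM between HES1 and NOTCH1 and 3.08 TPM between NOTCH1 and JAG1, each under the summed SDs of 7.52 and 5.97 TPM. HES1 was above NOTCH1 in 1 of 3 replicates, and above JAG1 in all 3, by 5.67 TPM against summed SDs of 4.96 TPM. The lead of HES1 over JAG1 depended on division by length. Without it, in counts scaled to the library total (CPM), JAG1 had a mean of 71.3 and HES1 18.7, with JAG1 higher in all 3 replicates. JAG2 was above DLL3 in all 3 replicates, but its lead of 2.02 TPM did not exceed the summed SD of 2.06 TPM. With the length of the canonical transcript in place of all exons, JAG1 (28.6 TPM) and HES1 (28.4 TPM) came before NOTCH1 (26.4 TPM), and the rest of the order was the same. NOTCH3 fell to 58.7 TPM and its ratio to NOTCH2 to 1.47, so the size of its lead depends on the exons that are counted in its length. Without division by length the lead was not separate: NOTCH3 had 210.5, 193.9 and 236.7 CPM and NOTCH2 had 198.8, 194.6 and 180.6 CPM, with overlapping ranges and NOTCH2 higher in replicate 2.

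Of the 10 genes, 5 (NOTCH1, NOTCH2, NOTCH3, JAG1 and HES1) were in the high class of the study's scheme, 2 (DLL1 and JAG2) in the medium class and 3 (DLL3, DLL4 and NOTCH4) in the low class. In this scheme genes below 0.01 TPM are nonexpressed and the others fall into 3 quantiles of mean TPM. The scheme was applied to TPM computed here from the counts, over protein-coding genes only. The study took its own levels from Cufflinks, so these classes are not its calls. Among all protein-coding genes, 28.8% were in the high class, and the median was 7.10 TPM against 25.7 TPM for the 10 genes. The genes were chosen for their pathway, not at random, and nothing particular to them is read from this difference. NOTCH1 and JAG1 were close to the boundary of 26.96 TPM. With the canonical length 4 of the 10 genes were high, without NOTCH1, and in CPM 4 were high, without HES1. With all genes ranked 6 were high, DLL1 being added. With genes under 1 TPM called nonexpressed, NOTCH2 and NOTCH3 alone of the 10 genes remained high, because the boundary rose to 37.9 TPM.

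Summed over the family, receptor transcripts were 2.90 times as abundant as ligand transcripts per exon length. The 4 receptors held 171, 158 and 179 TPM and the 5 ligands 54.6, 56.2 and 64.7 TPM in replicates 1, 2 and 3. The ratio was 3.13, 2.81 and 2.77, with a mean of 2.90 ± 0.195 (SD, n = 3). NOTCH3 made up 53.0 ± 1.61% of the receptor sum, NOTCH2 26.8 ± 2.97%, NOTCH1 19.7 ± 1.32% and NOTCH4 0.516 ± 0.0602% (SD, n = 3). JAG1 made up 51.9 ± 2.99% of the ligand sum and DLL1 36.1 ± 2.41% (SD, n = 3). JAG2 held 7.50 ± 2.00%, DLL3 4.22 ± 0.987% and DLL4 0.238 ± 0.179% (SD, n = 3). Jagged transcripts were thus 1.47 ± 0.104 times Delta-like transcripts (SD, n = 3), and above them in 3 of 3 replicates. The ratio depends on the length used and was 2.12 with canonical transcripts and 3.55 in CPM. These are shares of RNA, and levels of protein at the cell surface were not measured.

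**Figure D2:**
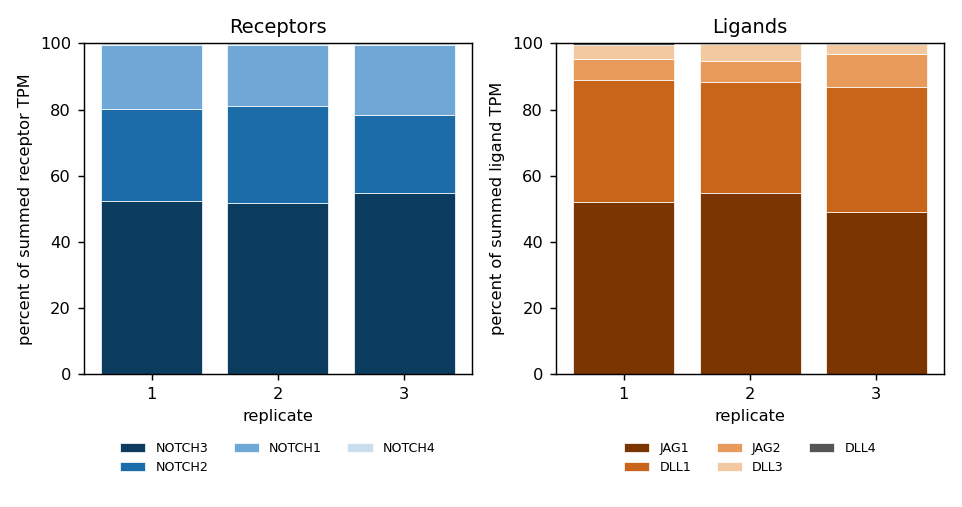
Stacked bars give each gene's percent of the summed TPM of the 4 receptors (left) and of the 5 ligands (right) in replicates 1, 2 and 3. NOTCH3 holds between 51.8% and 54.8% of receptor TPM and JAG1 between 48.9% and 54.9% of ligand TPM in every replicate.

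HES1 was not the most abundant transcript of its family. HES3, a HES repressor known from neural stem cells, had 187, 247 and 231 counts, or 101, 115 and 147 TPM, all above HES1. Its mean was 121 ± 23.3 TPM (SD, n = 3), which is 3.36 ± 0.608 times HES1 over the 3 replicates (SD). HES6, a family member known to oppose HES1, had 50.3, 52.4 and 54.9 TPM, also above HES1 in every replicate. The annotated exons of HES3 span 710 bp against 2059 bp for HES1, and the lead rests on this length. In CPM (counts scaled to the library total, with no division by length) HES3 had 18.0, 20.5 and 26.7 and HES1 had 16.8, 20.3 and 19.1, so their ranges overlapped. With canonical lengths, HES3 was 2.57 ± 0.465 times HES1 (SD, n = 3).

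HEY2, a related repressor that Notch is known to induce in the cardiovascular system, had 25.3, 27.5 and 30.3 TPM and followed HES1, with all its replicates lower. HEY1 had 2.89 ± 0.301 TPM (SD, n = 3) and the other 5 members, HES2, HES4, HES5, HES7 and HEYL, had means between 0.393 and 1.28 TPM. HES5, a classic Notch target of neural progenitors, had 0, 2 and 2 counts, and its promoter above holds 2 matches to the RBPJ core. HES1 made up 14.8 ± 1.61% and HES3 49.3 ± 3.43% of the TPM of the 10 HES and HEY genes (SD, n = 3). These shares, and the place of HES3 at the top of the family, depend on division by length. In CPM HES6 had 24.6, 25.8 and 27.5, above HES3 in every replicate. NRARP, a target that feeds back on the receptor complex, had 29.4, 29.4 and 29.7 TPM, with hardly any spread.

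**Figure D3:**
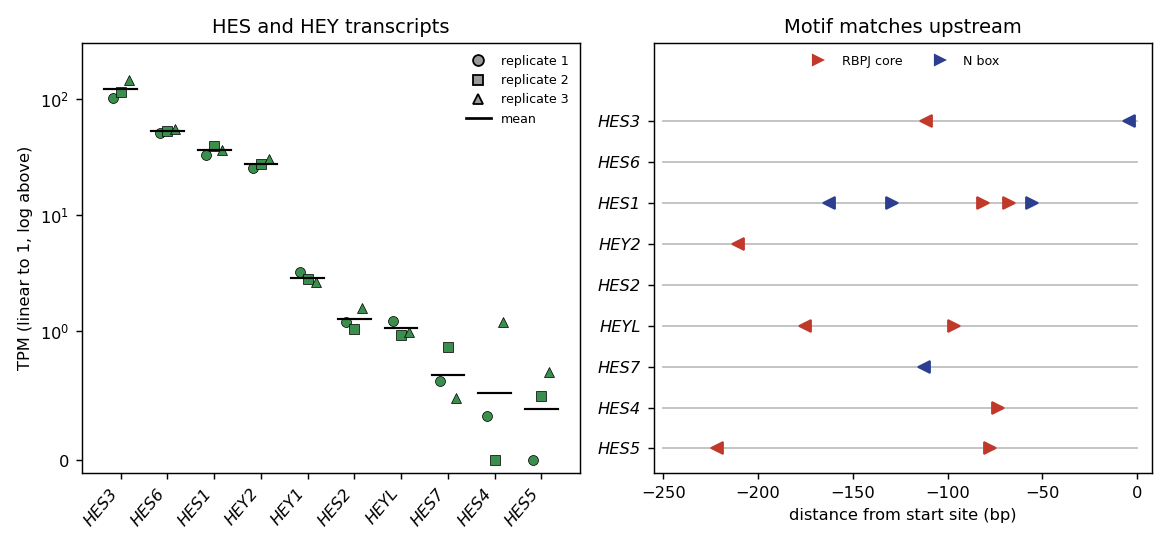
Left, TPM of 10 HES and HEY genes in each replicate (symbols) with the mean (horizontal lines), on an axis linear to 1 and logarithmic above. Right, matches to the RBPJ core (red) and the N box (blue) in the 250 bases before the start site, with arrows giving the strand. HES3, HES6, HES1 and HEY2 lie above 25 TPM, and 3 genes have 2 RBPJ matches each, HES1 at 36.0, HEYL at 1.06 and HES5 at 0.393 TPM. The promoter of HEY1 is not shown.

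The replicates were compared for each gene with what counting error alone would give. A gene was called variable where the Pearson chi-square of its 3 counts against the library totals, with 2 degrees of freedom, passed the 5% critical value of 5.99. Of 13947 protein-coding genes with at least 20 summed counts, 24.9% were called, and of the 9 such genes here (all but DLL4) 6 were called. These were NOTCH1, NOTCH2, NOTCH3, DLL1, JAG1 and JAG2, whereas HES1, NOTCH4 and DLL3 stayed within counting error. With at least 100 summed counts 27.8% of all genes and 6 of 7 genes here were called. Without replicate 3 this was 2 of 9, NOTCH1 and NOTCH3, against 11.3% of all genes, so that 4 of the 6 calls were not made without that library. With TMM or DESeq2 library factors 5 were called, without JAG1.

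Replicate 3 was set against the mean CPM of replicates 1 and 2 for the same 9 genes. It was higher for 7 of them, against 53.8% of all tested genes. That share was 88.4% of tested genes with exon GC of at least 60%, 62.7% from 50% to 60% and 41.0% below 50%. The log2 ratio was 0.88 for JAG2, 0.36 for DLL1, 0.36 for NOTCH4, 0.31 for NOTCH1 and 0.23 for NOTCH3. These 5 genes have exon GC contents between 57.8% and 64.2%. It was 0.12 for JAG1 and 0.04 for HES1, at 49.0% and 52.3% GC, and −0.12 for NOTCH2, at 46.6% GC. DLL3 had −0.32 at 63.9% GC, on 51 summed counts. Across all tested genes the median log2 ratio was 0.26 where exon GC was at least 60%, 0.06 from 50% to 60% and −0.03 below 50%. Spearman's rho between exon GC content and the log2 ratio was 0.38 over the 9 genes and 0.36 over all tested genes. It is given as a description across genes, which share their libraries. The part of GC content in the spread of the Notch genes was not tested. The sign for HES1 was not stable, since its log2 ratio was −0.0045 with DESeq2 size factors and −0.09 against replicate 2 alone.

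**Figure D4:**
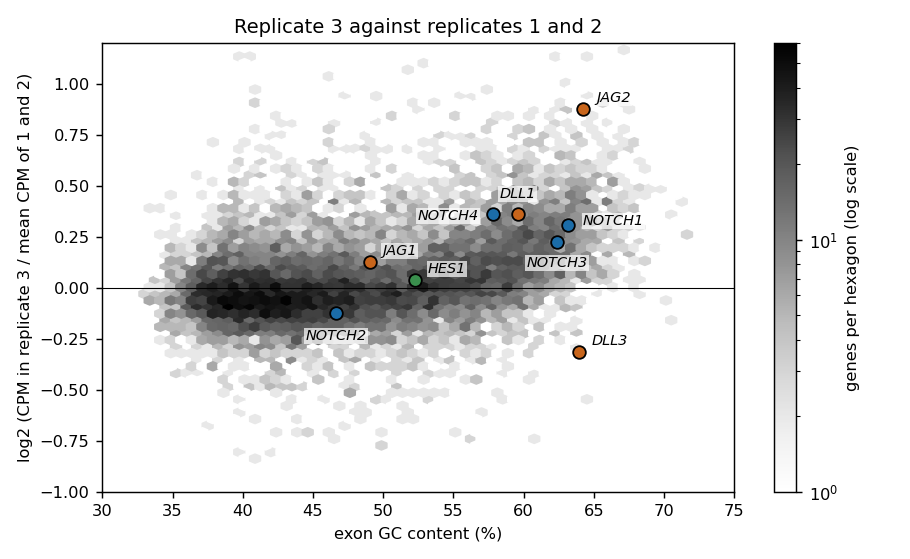
The log2 ratio of CPM in replicate 3 to the mean of replicates 1 and 2 (vertical) against exon GC content in percent (horizontal) for all tested protein-coding genes (grey hexagons) and 9 Notch genes (points). JAG2 is highest at 0.88, NOTCH2 with 46.6% GC is below 0, and DLL3 at −0.32 is the lowest of the 9 Notch genes.

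The rest of the pathway was examined by role, in lists of 66 measured genes, of which 26 were in the high class, 26 in the medium and 14 in the low class, or 39.4% high against 28.8% of all protein-coding genes. Among the 9 enzymes that cut the receptor, 4 were high and 5 medium. ADAM10, which makes the ligand-dependent cut, had 49.8 ± 0.366 TPM (SD, n = 3) and ADAM17 14.2 ± 0.369 TPM. Of the γ-secretase subunits, APH1A was highest at 126 ± 1.52 TPM and PSEN2 lowest at 4.92 ± 0.485 TPM.

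In the nuclear complex 5 of 9 genes were high. RBPJ, the DNA-binding partner of the cut receptor, had 86.2, 83.3 and 78.6 TPM, and the coactivator MAML1 had 80.8 ± 1.80 TPM (SD, n = 3), above MAML2 at 17.2 TPM and MAML3 at 10.4 TPM. SNW1, a coregulator that also acts in splicing, was highest at 147 TPM. RBPJL, a paralog of RBPJ known from pancreas, was lowest with 2, 1 and 0 counts. All 8 corepressors examined, which are known to act with RBPJ when no receptor is cut, were high, from KDM5A at 45.0 TPM to HDAC1 at 90.1 TPM. Most of the genes in both lists also serve other pathways.

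Of 6 enzymes that add sugars to the EGF repeats of receptors, POFUT1 was the only one in the high class, at 33.1 ± 3.75 TPM (SD, n = 3). Among the Fringe enzymes, which are known to tune the choice between Delta-like and Jagged ligands, RFNG had 14.5 ± 2.45 TPM and LFNG 8.38 ± 2.86 TPM (SD, n = 3), and MFNG had 4, 3 and 0 counts. LFNG, at 6.37, 7.11 and 11.7 TPM, was highest in replicate 3. Its exon GC content was 63.1%, and 88.4% of all tested genes with at least 60% were higher in that replicate. For ligand endocytosis, 2 of 7 genes were high. MIB1, the ubiquitin ligase for ligands, had 61.8 ± 2.63 TPM (SD, n = 3), MIB2 had 5.15 ± 1.37 TPM and NEURL1 was lowest at 0.216 ± 0.127 TPM, on 1, 5 and 3 counts. For receptor turnover, 2 of 11 genes were high and 9 medium, from DTX1 at 3.65 TPM to DTX3 at 33.9 TPM, with NUMB, an inhibitor of Notch, at 18.6 TPM. None of the 5 noncanonical ligands was high, and EGFL7 led them at 13.0 ± 3.05 TPM (SD, n = 3), with DLK1 lowest at 0.863 TPM.

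**Figure D5:**
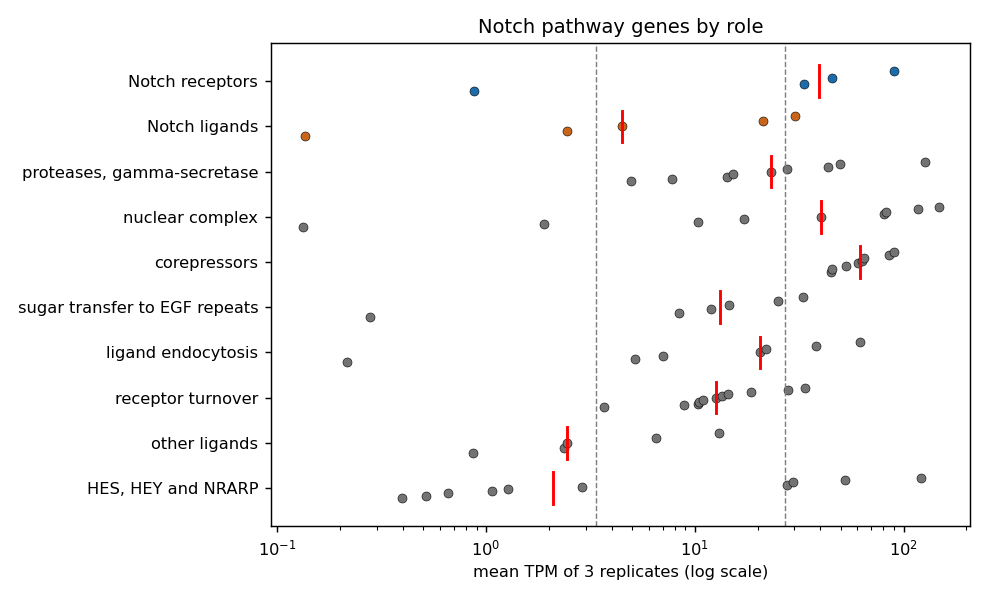
Mean TPM of 3 replicates on a log axis for each gene of the pathway by role (points), with the median of each list (red) and the class boundaries of 3.35 and 26.96 TPM (dashed). The 8 corepressors all lie above the upper boundary, while the HES, HEY and NRARP list splits into 4 genes above it and 6 below the lower one.

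Reads of NOTCH2 could be shared with its human-specific partial copies. Of the 4 NOTCH2NL genes looked up, only NOTCH2NLA has an identifier in the counts, with 39, 50 and 40 counts against 2066, 2340 and 1563 for NOTCH2. Of all 50-base windows of the canonical NOTCH2 transcript, 4.86% also occur in transcripts of other genes, read on either strand. NOTCH2NLA, NBPF10 and NOTCH2NLC shared the most of them. The share of such windows was 8.61% for DLL1, 7.36% for JAG2, 4.40% for JAG1, 0.747% for NOTCH4 and 0% for NOTCH1, NOTCH3, DLL3, DLL4 and HES1. For DLL1, JAG2, JAG1 and NOTCH4 the windows were shared only with the overlapping genes given above, FAM120B, the noncoding genes and GPSM3. They thus restate those overlaps.

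The protein-coding genes most like NOTCH3 by distance in log2(TPM + 0.01) over the 3 replicates were MKNK2, LRRC47 and NCLN, at distances of 0.0468, 0.0556 and 0.0734. For HES1 they were GPATCH3, TADA1 and RNF139, at 0.0620, 0.0625 and 0.0643. With 1 condition, these genes share a level and a spread between libraries with NOTCH3 or HES1, and no more can be read from them.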

How the data were processed

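RNA of 3 replicates of untreated H9 cells was sequenced by the authors after depletion of ribosomal RNA. The submitters' processing notes name Trim Galore 0.4.4, TopHat2 2.1.1, Cufflinks 2.2.1 and the build GRCh38. The deposited counts are raw and whole for each gene identifier. The counting tool, its gene models and its strand setting were not given in the sources used here. Depth was 8655155 to 12024802 counts, and intervals cover counting error only, as PCR reads without molecular identifiers can be copies of 1 molecule.

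Identifiers were joined to GENCODE 44, on the same build, and 56948 of 58051 matched, of which 19629 are protein-coding. TPM was computed over the union of exons and averaged over replicates. With 1 condition no test between groups was made. The code for the chi-square of counts and for the classes was run on simulated counts with counting error and set changes in replicate 3. Other spread between libraries was not simulated, so that run checks the code alone. Alternatives were other gene lengths, CPM, TMM factors of edgeR 4.0.16, size factors of DESeq2 1.42.0, other thresholds and filters, and leaving out each replicate. The main descriptions needed no count test, and edgeR and DESeq2 gave only library factors and the filter on low counts. Promoters were taken from RefSeq (GRCh38.p14). Scripts ran in Python 3.11.15 with scipy 1.17.1 and in R 4.3.3.

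All 10 genes are named. Any gene of the pathway lists may be named, and each list is given by its classes with its highest and lowest gene and any gene at 0 counts. Likeness was taken for HES1 and the member of highest mean TPM, with the 3 nearest genes by Euclidean distance. HES3 and HES5 promoters were chosen after their levels were seen. The members and lists were chosen with earlier results of these data known.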

Additional observations from a re-analysis of the deposited data

How the results depend on the processing

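Library scaling moved no level beyond its SD: with TMM factors, DESeq2 size factors or mitochondrial genes left out, all 10 means stayed within it. The TMM factors were 0.991, 0.992 and 1.02, and the DESeq2 levels were rescaled to the same mean total. Both settings could therefore hardly move a mean over 3 libraries. JAG1 was no longer called beyond counting error with TMM or DESeq2 factors (5 genes in place of 6), and HES1 changed sign in replicate 3 with DESeq2. Gene length mattered more. With the longest transcript as length, NOTCH3 had 73.2 TPM and 46.9% of the receptor sum, and JAG1 had 62.0% of the ligand sum. With the canonical transcript these were 58.7 TPM, 46.6% and 61.6%. In CPM, which is another unit, NOTCH3 had 214 CPM and 41.6%, JAG1 had 70.9%, the receptor sum was 5.11 times the ligand sum, and NOTCH3 no longer separated from NOTCH2. The ratio of Jagged to Delta-like sums, recomputed in this way only after seeing the data, was 2.16 with the longest transcript, 2.12 with the canonical transcript and 3.55 in CPM, against 1.409 to 1.504 with 1 replicate dropped. Between the length settings the counts were the same and only the divisor changed. JAG1 has 9298 bp of exons and a canonical transcript of 5940 bp, and DLL1 has 3819 and 3779 bp. The number of the 10 genes in the high class was 2 with a threshold of 1 TPM and 2 with genes kept by filterByExpr, where the boundary rose to 38.6 TPM. It was 4 with canonical lengths, 4 in CPM, where HES1 left the class, 6 with all genes ranked, where DLL1 entered, and 5 in the other settings. With all genes ranked, 45 of the other 66 pathway genes were high in place of 26, as the boundary fell to 8.57 TPM.

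Dropping 1 replicate at a time gave 85.6 to 93.7 TPM for NOTCH3, 2 to 6 genes with spread beyond counting error (2 without replicate 3), 24 to 25 other pathway genes in the high class and 6 to 7 separate neighbors. A mean cannot leave its SD when 1 of 3 values is dropped, so this says nothing on single levels. At this depth, among the pathway genes, levels of DLL4, HES4, HES5, RBPJL, MFNG and NEURL1 rest on fewer than 10 summed counts. No paired analysis was possible because all 3 samples are of the same condition.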
